A study of Mus musculus with 6 samples.

Results

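The spliceosome removes introns from pre-messenger RNA, and the results concern the genes of its core small nuclear ribonucleoprotein particles (snRNPs) and of the helicases that drive it. The 46 genes were chosen by symbol, from textbook membership of the U1, U2 and U4/U6.U5 particles, the Sm and Lsm rings and the spliceosomal helicases. This rule uses no measured value, although the members were chosen with earlier results of these data known. Each of the 46 was found once among the 47122 gene models of the deposited table, and all 46 passed the filter on low values that left 14589 genes for testing. They were grouped into 7 classes: 3 U1 proteins, 7 Sm proteins, 11 U2 proteins, 3 factors of the 3′ splice site, 8 proteins of U5 and U4/U6, 7 Lsm proteins and 7 helicases. The levels come from RNA sequencing of whole mouse ovaries at 1 day post partum. The cKO group held 3 libraries labelled BCAS2 cKO, from ovaries in which Bcas2 had been knocked out in oocytes, and the WT group held 3 libraries labelled WT. Tissue and design labels name the ovary, although a description label also speaks of granulosa cells. Neither the driver of the deletion nor the strain, nor whether ovaries were pooled, is given in the labels used here. The p-values therefore reflect spread among libraries, and it is not known how many animals each library stands for or whether the libraries were independent. Bcas2 encodes a subunit of the PRP19 complex, and the comparison asks what the loss of this splicing factor does to the ovary's RNA.

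In textbook outline, the U1 snRNP pairs with the 5′ splice site, and SF1 and the U2AF dimer mark the branch point and the 3′ splice site before U2 takes over the branch point. The U4/U6.U5 tri-snRNP then joins, U1 and U4 leave, and the PRP19 complex stabilises the activated form in which U6 and U2 RNA build the catalytic centre around the U5 protein PRPF8. A ring of Sm proteins sits on U1, U2, U4 and U5 RNA, an Lsm ring sits on the 3′ end of U6 RNA, and a set of helicases drives each change of shape. Around birth in the mouse ovary, clusters of oocytes break apart and single oocytes become enclosed by pregranulosa cells, and both kinds of cell depend on these particles for nearly every messenger RNA.

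Each library held between 16800421 and 19565275 reads, recovered from the deposited FPKM, a fragment count scaled to gene length and to a library size. The library size implied by the values was between 0.962 and 1.03 times the recovered reads. Bcas2, the deleted gene, stood at 18.9, 21.9 and 18.3 FPKM in the cKO ovaries and 54.5, 37.5 and 35.7 FPKM in the WT ovaries. No cKO library reached the lowest WT value, and the log2 fold change was −1.05 (SE 0.17, limma adjusted p = 0.955). A two-sided exact permutation test gave p = 0.1, below which 3 libraries against 3 cannot go. Germ cell markers were present in every library, with a summed level between 1081 and 1434 FPKM in cKO and between 970.2 and 1462 FPKM in WT, and so were pregranulosa markers, between 461 and 538 FPKM in cKO and between 417 and 596 FPKM in WT. WT replicate 1 stood apart in endothelial markers, at 163 FPKM summed over 8 genes against 40.4 to 61.2 FPKM in the other 5 libraries, and in pericyte and smooth muscle markers (85.5 FPKM against 18.9 to 28.4 FPKM) and stroma markers (1389 FPKM against 400.3 to 652 FPKM), with a low sum of surface epithelium markers (193 FPKM against 434 to 544 FPKM). Erythroid markers reached 13689 FPKM in cKO replicate 2 against 405 to 1233 FPKM in the others. Both libraries recur at the ends of ranges given further on.

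No snRNP or helicase gene differed between the groups at an adjusted p under 0.05 in limma. Of the 46, 0 rose, 0 fell and 46 did not pass, against 0.00% of all tested genes called. The deleted gene Bcas2, with a log2 fold change of −1.05, did not pass either (limma adjusted p = 0.955). At an unadjusted p under 0.05 the count was 0 of 46, beside 3.04% of all tested genes, and the smallest p of a member was 0.0575, for Prpf8. The groups did not overlap for 2 members, Sf3b1 and Dhx15, both with cKO below WT, where 7.88% of all tested genes had groups without overlap in either direction. The 2 genes make up 4.35% of the members. The median log2 fold change of the members was 0.038, beside −0.0058 for all tested genes, and it was 0.25 for the rings. After rescaling to TPM, which gives every library the same sum over genes, the members' median turned to −0.042. That of all tested genes moved to −0.082. The members had levels between 6.49 and 176 FPKM and at least 206 recovered reads in any library. For 45 of the 46 the 95% interval of the difference lay inside a 2-fold change in either direction, the exception being Snrpf (−0.53 to 1.02 on the log2 scale). For 33 of the 46 it lay inside a 1.5-fold change, which held for 31 of the 32 members outside the rings and for 2 of the 14 ring genes, although the rings hold the most abundant members. The ovary is a mixture, so fewer cells of a type and less RNA per cell cannot be told apart. The knockout was in oocytes and the RNA came from whole ovaries, so these intervals do not bound a change confined to oocytes.

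**Figure D1:**
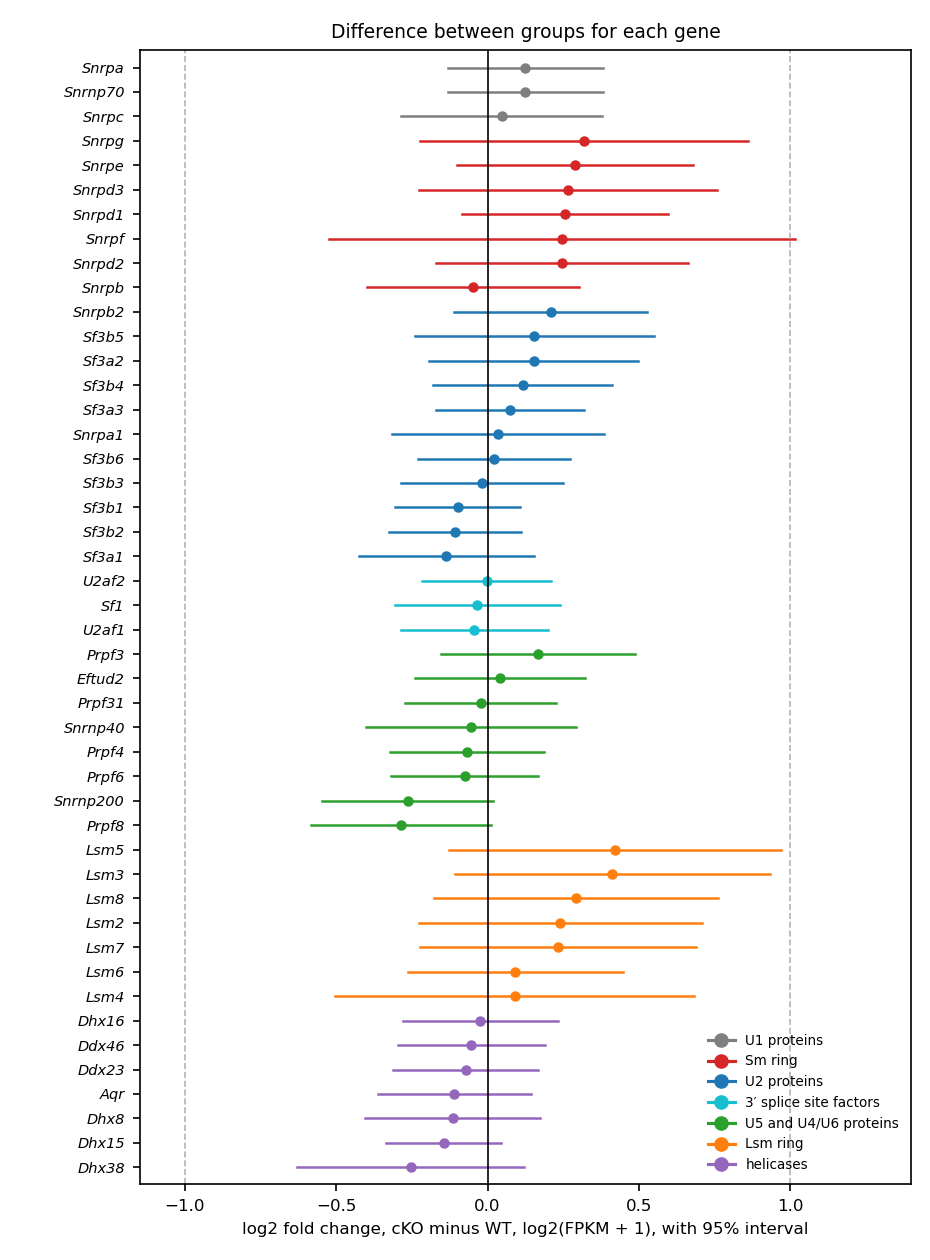
Log2 fold change of each of the 46 genes, cKO minus WT, on the log2(FPKM + 1) scale (x axis), one gene per line grouped and coloured by class. Points are limma estimates and bars are 95% intervals from 3 libraries per group; the dashed lines mark a 2-fold change. Every interval includes 0, the Lsm genes and 6 of the 7 Sm genes lie to the right of 0, and all 7 helicases lie to the left.

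By particle, the estimates lay on different sides of 0, and none of them passed the test. The median log2 fold change was 0.26 for the Sm ring and 0.24 for the Lsm ring, 0.12 for the U1 proteins, 0.035 for the U2 proteins, −0.034 for the 3′ splice site factors, −0.062 for the U5 and U4/U6 proteins and −0.11 for the helicases. Of the 14 ring genes 13 had an estimate above 0, and of the 7 helicases 0 did, against 7098 of all 14589 tested genes. Rescaling to TPM left the sides of the rings (0.18 for Sm and 0.16 for Lsm), of U5 and U4/U6 (−0.14) and of the helicases (−0.19) as they were, and put the U2 median at −0.044. It moved the median of all tested genes to −0.082. The U2 median was also below 0 with the length trend removed (−0.018) and without WT replicate 1 (−0.0077). The median of the 3′ splice site factors was above 0 with array weights (0.012), without WT replicate 1 (0.027), without cKO replicate 3 (0.021) and, at 0.00010, with voom on recovered reads. The U1 median was 0.043 with the length trend removed, 0.045 after rescaling to TPM and 0.049 without cKO replicate 2. The U5 and U4/U6 median was −0.0061 without cKO replicate 1.

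Promoter sequences are shown for the Sm gene, the Lsm gene and the U5 pair whose estimates lay farthest from 0, so that genes from both ends of the range of estimates can be read side by side. RefSeq windows on GRCm38.p6, from 250 bases before to 50 after the start, were found for 36 of the 46 genes. Capitals mark the core motif of ETS family factors, CCGGAAG, or its complement CTTCCGG. Snrpg lies at chr6:86371290-86371589 on the plus strand, Lsm5 at chr6:56704650-56704949 on the minus strand, Snrnp200 at chr2:127208136-127208435 on the plus strand and Prpf8 at chr11:75486527-75486826 on the plus strand.
Snrpg: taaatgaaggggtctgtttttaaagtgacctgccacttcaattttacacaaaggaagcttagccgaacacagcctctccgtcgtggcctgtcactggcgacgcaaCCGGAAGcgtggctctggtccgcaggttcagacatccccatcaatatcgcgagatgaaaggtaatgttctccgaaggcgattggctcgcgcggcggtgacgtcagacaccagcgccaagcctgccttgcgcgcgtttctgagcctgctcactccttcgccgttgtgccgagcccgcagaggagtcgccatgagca
Lsm5: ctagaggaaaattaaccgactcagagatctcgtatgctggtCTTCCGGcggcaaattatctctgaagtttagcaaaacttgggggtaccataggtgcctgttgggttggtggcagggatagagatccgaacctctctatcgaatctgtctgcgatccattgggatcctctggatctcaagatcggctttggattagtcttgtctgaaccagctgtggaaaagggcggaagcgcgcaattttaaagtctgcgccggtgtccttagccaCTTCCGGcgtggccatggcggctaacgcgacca
Snrnp200: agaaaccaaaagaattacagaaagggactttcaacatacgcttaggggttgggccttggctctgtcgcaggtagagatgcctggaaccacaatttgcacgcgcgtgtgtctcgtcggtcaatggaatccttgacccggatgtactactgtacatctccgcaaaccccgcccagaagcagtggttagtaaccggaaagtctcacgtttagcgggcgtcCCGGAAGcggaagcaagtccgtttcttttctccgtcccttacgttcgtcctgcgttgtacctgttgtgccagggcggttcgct
Prpf8: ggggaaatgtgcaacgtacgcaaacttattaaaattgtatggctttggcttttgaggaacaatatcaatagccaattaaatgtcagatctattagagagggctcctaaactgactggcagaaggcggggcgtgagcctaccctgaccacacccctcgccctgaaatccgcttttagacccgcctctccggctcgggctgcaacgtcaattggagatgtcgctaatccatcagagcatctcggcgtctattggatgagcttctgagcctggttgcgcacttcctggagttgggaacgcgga
Snrpg held this motif once, 1 match, Lsm5 held 2, Snrnp200 held 1 and Prpf8 held 0, so genes with estimates on either side of 0 carried it. The motif, searched on both strands, was in 18 of the 42 windows of the members (42.9%), beside 17.4% of 12617 windows of the other tested protein-coding genes and 8.86% of all 32851 windows. It was in 3 of 13 windows of ring genes and 15 of 29 of the other members. A TATAAA box was in 2 windows of the members (4.76%, against 6.91% for the other tested protein-coding genes), and CCAAT was in 40.5% against 37.8%. A match in a window is a description of its letters and not a site shown to be bound.

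The 3 U1 genes had estimates just above 0. Snrpc, which stabilises the pairing of U1 RNA with the 5′ splice site, was the highest of them at 56.2, 79.5 and 65.3 FPKM in the cKO ovaries and 63.8, 60.1 and 69.1 FPKM in the WT ovaries, with a log2 fold change of 0.046 (SE 0.14, limma adjusted p = 0.979). The lowest and the highest of its 6 values were both cKO libraries, so the groups overlapped. Snrpa, which binds a stem loop of U1 RNA, stood at 49.1, 54.98 and 44.6 FPKM in the cKO ovaries and 46.2, 42.2 and 47.4 FPKM in the WT ovaries, with 0.12 (SE 0.11, limma adjusted p = 0.955). Snrnp70, whose protein contacts SR proteins and the 5′ splice site, stood at 43.9, 45.2 and 36.3 FPKM in the cKO ovaries and 38.5, 39.3 and 36.6 FPKM in the WT ovaries, with 0.12 (SE 0.11, limma adjusted p = 0.955). For both, the highest value was in cKO replicate 2 and cKO replicate 3 lay below at least one WT library. Of the 3 genes, Snrpc alone had a sign that turned under other settings. Its estimate was −0.035 after rescaling to TPM, −0.11 with the trend of gene length removed, −0.083 without cKO replicate 2 and −0.00080 without WT replicate 2. The ratio of Snrpa to Snrpc FPKM was 0.873, 0.691 and 0.683 in the cKO libraries and 0.724, 0.701 and 0.686 in the WT libraries.

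The Sm ring held the 5 most abundant of the 46 genes. Snrpg, which has the shortest gene model of the 46, stood at 183, 265 and 145 FPKM in the cKO ovaries and 133, 152 and 179 FPKM in the WT ovaries, with a log2 fold change of 0.32 (SE 0.23, limma adjusted p = 0.955) and a 95% interval from −0.22 to 0.86. Its highest value was in cKO replicate 2 and its lowest in WT replicate 1, and cKO replicate 3 lay among the WT libraries. With cKO replicate 2 left out the estimate was 0.086, and with cKO replicate 3 left out it was 0.52. Removal of the length trend gave 0.13. Snrpe stood at 130.0, 171 and 129 FPKM in the cKO ovaries and 97.0, 121 and 133 FPKM in the WT ovaries, with 0.29 (SE 0.16, limma adjusted p = 0.955), and WT replicate 3 lay above cKO replicates 1 and 3. For Snrpe the estimate was 0.16 without WT replicate 1, 0.16 without cKO replicate 2 and 0.096 with the length trend removed. Snrpd1, Snrpd2 and Snrpd3 had estimates of 0.26 (SE 0.14), 0.24 (SE 0.18) and 0.26 (SE 0.21), while Snrpb, which codes for the B and B′ proteins, was at 138 ± 14.9 FPKM in cKO and 143 ± 22.8 FPKM in WT (SD, n = 3 each) with an estimate of −0.049 (SE 0.15). The 7 proteins enter the ring in equal numbers, and their RNA levels per length were unequal: Snrpf averaged 25.9 FPKM over the 6 libraries and Snrpg 176 FPKM. In the order Snrpg, Snrpb, Snrpe, Snrpd2, Snrpd3 and Snrpd1, neighbours overlapped in the range of their libraries, and Snrpf lay below Snrpd1 in every library. Snrpf was also the most variable member, from 14.5 FPKM in WT replicate 1 to 38.5 FPKM in cKO replicate 2.

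The 2 highest estimates of the 46 belonged to Lsm genes. Lsm5, a subunit of the ring on U6 RNA, stood at 60.2, 82.9 and 59.9 FPKM in the cKO ovaries and 36.4, 51.0 and 66.01 FPKM in the WT ovaries, with 0.42 (SE 0.23, limma adjusted p = 0.955). Lsm3, the most abundant of the ring, stood at 127, 134 and 88.2 FPKM in the cKO ovaries and 69.0, 83.7 and 109.9 FPKM in the WT ovaries, with 0.41 (SE 0.22, limma adjusted p = 0.955). For both genes WT replicate 3 lay above cKO replicate 3, so the groups overlapped. Without WT replicate 1 the estimates of Lsm5 and Lsm3 were 0.20 and 0.26, and without cKO replicate 2 they were 0.27 and 0.30. With the length trend removed both were at 0.23. Lsm8, the subunit that sets the nuclear ring apart from the cytoplasmic one used in RNA decay, stood at 26.8, 36.8 and 28.1 FPKM in the cKO ovaries and 18.7, 30.2 and 26.1 FPKM in the WT ovaries, with an estimate of 0.29 (SE 0.20). The estimates of Lsm2, Lsm7, Lsm6 and Lsm4 were 0.24 (SE 0.20), 0.23 (SE 0.19), 0.092 (SE 0.15) and 0.089 (SE 0.25). Levels ran from 12.4 FPKM for Lsm6 to 102 FPKM for Lsm3. In FPKM, Lsm6 lay below every other Lsm gene in the range of its libraries, while neighbours among the other 6 overlapped. This order is scaled to gene length, and the gene model of Lsm6 was the longest of the ring, at 4147 bases. Recovered reads ran from 704 to 1130 for Lsm6, beside 318 to 699 for Lsm5, 465 to 765 for Lsm7 and 244 to 464 for Lsm8. They ran higher for Lsm2 (986 to 1674), Lsm3 (759 to 1426) and Lsm4 (865 to 1727).

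**Figure D2:**
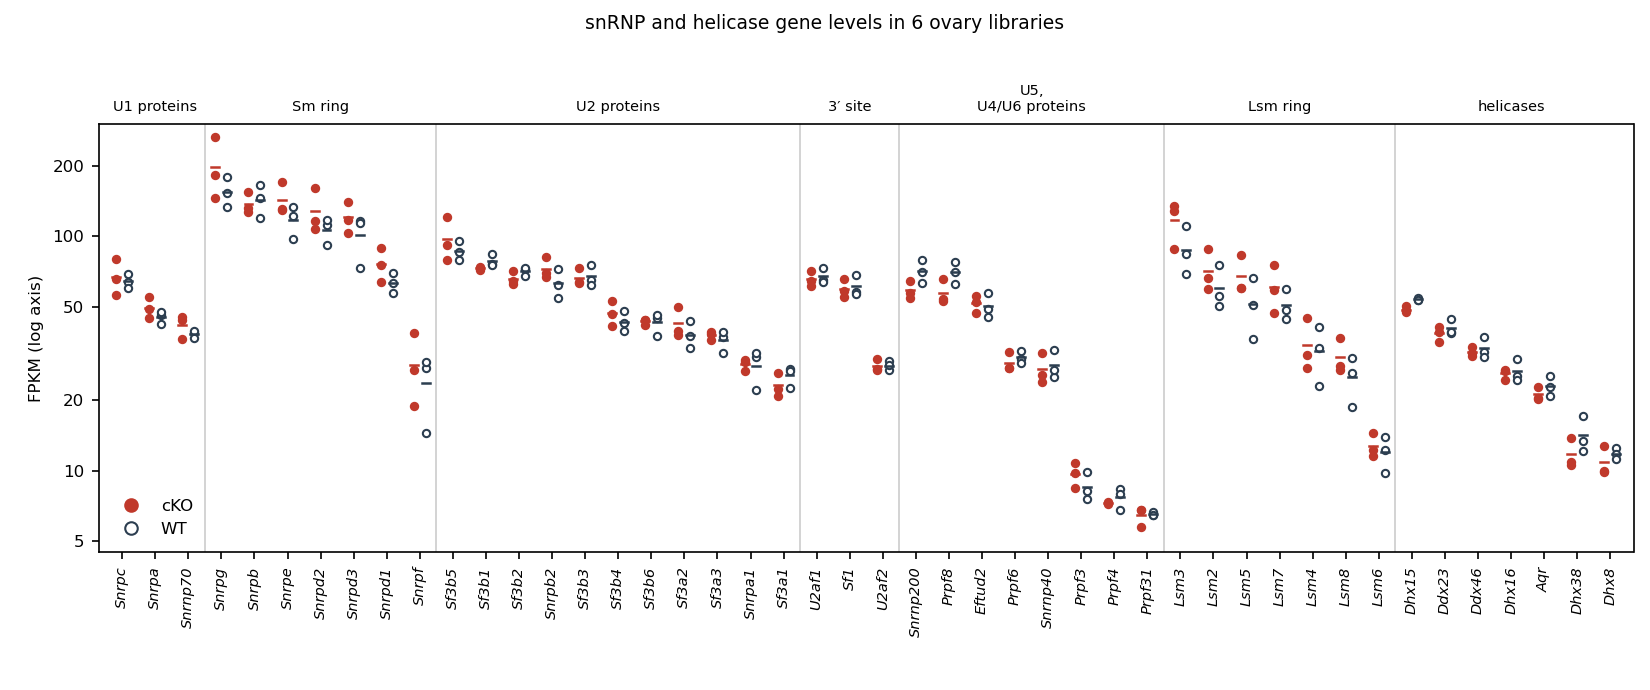
FPKM of each of the 46 genes on a log axis, grouped by class and ordered by mean level within it. Filled points are the 3 cKO libraries (left of each pair), open points the 3 WT libraries (right), and short lines the group means. Snrpf, Lsm6 and the U4/U6 genes Prpf3, Prpf4 and Prpf31 lie below the rest of their classes, and the groups overlap for all genes but Sf3b1 and Dhx15. FPKM is scaled to gene length, and Lsm6 has the longest gene model of its ring, at 4147 bases.

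The U2 proteins covered both sides of 0. Snrpb2, which encodes the B″ protein that binds U2 RNA, stood at 69.7, 81.1 and 67.0 FPKM in the cKO ovaries and 54.6, 61.7 and 72.6 FPKM in the WT ovaries, with 0.21 (SE 0.13, limma adjusted p = 0.955). Sf3b5, a small subunit of the SF3B complex and the most abundant gene of the class, stood at 79.5, 121 and 92.0 FPKM in the cKO ovaries and 79.0, 85.2 and 95.3 FPKM in the WT ovaries, with 0.15 (SE 0.17, limma adjusted p = 0.955), and its estimate turned to −0.018 with the length trend removed and −0.012 without cKO replicate 2. Sf3b1, whose protein clasps the branch point helix, stood at 74.0, 71.9 and 73.4 FPKM in the cKO ovaries and 83.7, 76.1 and 75.6 FPKM in the WT ovaries. Its groups did not overlap, with cKO below WT and a log2 fold change of −0.099 (SE 0.087, limma adjusted p = 0.955). Without WT replicate 1 the estimate was −0.053, with the length trend removed −0.030, and after rescaling to TPM −0.18. The other large SF3B genes were close to it, Sf3b2 at 65.9 ± 4.48 FPKM in cKO and 71.0 ± 2.90 FPKM in WT and Sf3b3 at 66.4 ± 5.50 FPKM in cKO and 67.4 ± 7.02 FPKM in WT (SD, n = 3 each), with estimates of −0.11 (SE 0.092) and −0.019 (SE 0.11). The SF3A genes lay lower, with Sf3a1 at 23.1 ± 2.75 FPKM in cKO and 25.5 ± 2.52 FPKM in WT, Sf3a2 at 42.4 ± 6.58 FPKM in cKO and 38.0 ± 5.15 FPKM in WT and Sf3a3 at 37.8 ± 1.51 FPKM in cKO and 35.9 ± 3.65 FPKM in WT (SD, n = 3 each). The FPKM of Sf3b1 over that of Sf3a1 was 3.55, 3.23 and 2.81 in the cKO libraries and 3.07, 3.37 and 2.85 in the WT libraries. Snrpa1, Sf3b4 and Sf3b6 had estimates of 0.035 (SE 0.15), 0.12 (SE 0.12) and 0.021 (SE 0.11).

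The factors that mark the 3′ splice site had the narrowest range of estimates, −0.043 to −0.0035. U2af1, the small U2AF subunit that reads the terminal AG of the intron, stood at 64.4, 70.7 and 61.2 FPKM in the cKO ovaries and 65.2, 63.8 and 73.4 FPKM in the WT ovaries, with −0.043 (SE 0.10, limma adjusted p = 0.977). Sf1, the branch point binding protein, stood at 58.2, 65.4 and 54.98 FPKM in the cKO ovaries and 68.4, 57.8 and 56.8 FPKM in the WT ovaries, with −0.034 (SE 0.11, limma adjusted p = 0.983). The groups of both genes overlapped. U2af2, the large subunit that binds the polypyrimidine tract, was at 28.0 ± 1.66 FPKM in cKO and 28.1 ± 1.28 FPKM in WT (SD, n = 3 each), an estimate of −0.0035 (SE 0.090). U2af1 exceeded U2af2 in every library, with FPKM ratios of 2.37, 2.36 and 2.27 in the cKO libraries and 2.23, 2.38 and 2.61 in the WT libraries. These ratios are scaled to gene models of 1092 bases for U2af1 and 6289 bases for U2af2. In recovered reads U2af2 was higher, with 2921 to 3458 against 1209 to 1566 for U2af1.

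The 2 estimates farthest below 0 belonged to large U5 proteins. Prpf8, the scaffold around the catalytic centre, stood at 54.0, 52.8 and 65.4 FPKM in the cKO ovaries and 77.5, 62.5 and 70.4 FPKM in the WT ovaries, with a log2 fold change of −0.29 (SE 0.13, limma adjusted p = 0.955) and a 95% interval from −0.58 to 0.012. Snrnp200, the helicase that unwinds U4 from U6, stood at 57.4, 54.3 and 64.6 FPKM in the cKO ovaries and 70.4, 63.1 and 79.2 FPKM in the WT ovaries, with −0.26 (SE 0.12, limma adjusted p = 0.955) and an interval from −0.55 to 0.018. In both genes cKO replicate 3 lay above WT replicate 2, and the other cKO libraries lay below every WT library. Both reached an unadjusted p under 0.05 after rescaling to TPM, without WT replicate 2 and without cKO replicate 3, with an adjusted p of at least 0.877 in those fits. Rescaling to TPM also moved the median of all tested genes, to −0.082. The unadjusted p was above 0.05 for both genes in the other 14 alternatives. Among these the estimates of Prpf8 and Snrnp200 were −0.18 and −0.14 with array weights, −0.23 and −0.21 without cKO replicate 2, and −0.25 and −0.25 without cKO replicate 1. Snrnp200 was at −0.18 without WT replicate 3. The FPKM ratio of Prpf8 to Snrnp200 was 0.940, 0.973 and 1.01 in the cKO libraries and 1.10, 0.992 and 0.889 in the WT libraries. Eftud2, the U5 GTPase, was at 51.7 ± 4.12 FPKM in cKO and 50.4 ± 6.08 FPKM in WT (SD, n = 3 each), with an estimate of 0.041 (SE 0.12), on the other side of 0. Prpf6, which bridges U5 and U4/U6, and Snrnp40 were at −0.076 (SE 0.10) and −0.056 (SE 0.15). The U4/U6 proteins were the least abundant members: Prpf3 was at 9.70 ± 1.17 FPKM in cKO and 8.54 ± 1.18 FPKM in WT, Prpf4 at 7.28 ± 0.0647 FPKM in cKO and 7.71 ± 0.816 FPKM in WT and Prpf31 at 6.44 ± 0.599 FPKM in cKO and 6.55 ± 0.109 FPKM in WT (SD, n = 3 each), with estimates of 0.17 (SE 0.14), −0.068 (SE 0.11) and −0.023 (SE 0.11).

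All 7 helicases had estimates below 0 (5 to 7 of the 7 under the alternative settings, 6 with voom on recovered reads and 6 with the length trend removed), from −0.25 to −0.024, and none passed the test. Dhx15, which takes the spent spliceosome apart, was the most abundant and stood at 50.3, 47.2 and 48.3 FPKM in the cKO ovaries and 53.6, 54.3 and 53.6 FPKM in the WT ovaries, with −0.15 (SE 0.080, limma adjusted p = 0.955). Its 3 cKO values lay below its 3 WT values, and it varied least of all members within groups. Dhx38, which remodels the complex between the catalytic steps, stood at 10.8, 10.6 and 13.8 FPKM in the cKO ovaries and 17.1, 12.2 and 13.4 FPKM in the WT ovaries, with −0.25 (SE 0.16, limma adjusted p = 0.955). The WT value of replicate 1 was the highest, and without that library the estimate was −0.12. Ddx46, which acts when U2 binds the branch point, Ddx23, which helps U6 replace U1, and Dhx16, which activates the complex, had estimates of −0.054 (SE 0.10), −0.073 (SE 0.10) and −0.024 (SE 0.11). Dhx8, which releases the spliced RNA, and Aqr, which binds the intron, had −0.12 (SE 0.12) and −0.11 (SE 0.11).

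Gene length went with these differences. The ring genes are short, with a median length of 749.5 bases in the deposited table, and the helicases are long, with a median of 4319 bases. Across the 46 members the Spearman correlation of length with the log2 fold change was −0.79, beside −0.43 across all 12394 tested protein-coding genes. These are descriptions across genes that share the same 6 libraries. The 10 ring genes under 1000 bases had a median log2 fold change of 0.28, and the 602 other tested protein-coding genes of that length had 0.22, with quartiles of 0.12 and 0.33. Of those short genes 87.4% had an estimate above 0. At 4000 bases and over, the 14 members had a median of −0.084 and the 5686 other protein-coding genes −0.065. With the trend of each library with gene length removed, the median of the rings was 0.097 in place of 0.25, that of the helicases was −0.071 in place of −0.11, and Prpf8 and Snrnp200 stood at −0.22 and −0.20. The removal was only partial. In that fit the 614 tested protein-coding genes under 1000 bases, members included, kept a median of 0.056. The Spearman correlation of length with the log2 fold change across the members was then −0.41.

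**Figure D3:**
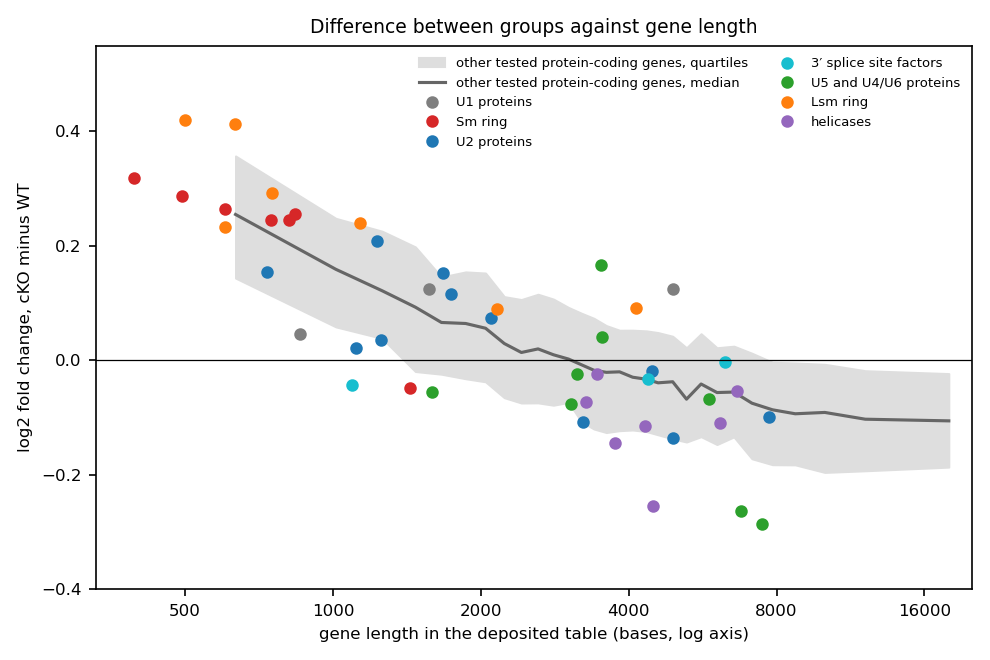
Log2 fold change, cKO minus WT, against gene length on a log axis. Coloured points are the 46 genes by class, and the grey line and band are the median and quartiles of the other tested protein-coding genes in 30 bins of length. Most ring genes lie above 0, as the other short genes do. Genes of several classes lie below the band, among them Prpf8, Snrnp200, Dhx38 and U2af1, and others lie above it, among them Prpf3, Snrnp70 and Lsm6.

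The estimates of the rings rested on 2 libraries more than on the others. As the median deviation from each gene's mean over the 6 libraries, on the log2 scale, the Sm ring stood at 0.093, 0.41 and −0.11 in cKO replicates 1, 2 and 3 and at −0.37, −0.053 and 0.061 in WT replicates 1, 2 and 3. The Lsm ring stood at 0.038, 0.44 and −0.079 in cKO and at −0.49, −0.17 and 0.17 in WT. Thus cKO replicate 2 was highest and WT replicate 1 lowest for both, and the other 4 libraries overlapped between the groups. Of the 14 ring genes 13 were highest in cKO replicate 2 and 13 lowest in WT replicate 1. The other protein-coding genes under 1000 bases showed the same order at the ends, with 0.29 in cKO replicate 2 and −0.32 in WT replicate 1. Without WT replicate 1 the median log2 fold change of the rings was 0.14, and without cKO replicate 2 it was 0.084, while that of other libraries left out lay between 0.28 and 0.37. These are the libraries with the high endothelial and stroma sums and with the high erythroid sum, and the part of those cells in the ring levels was not tested.

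**Figure D4:**
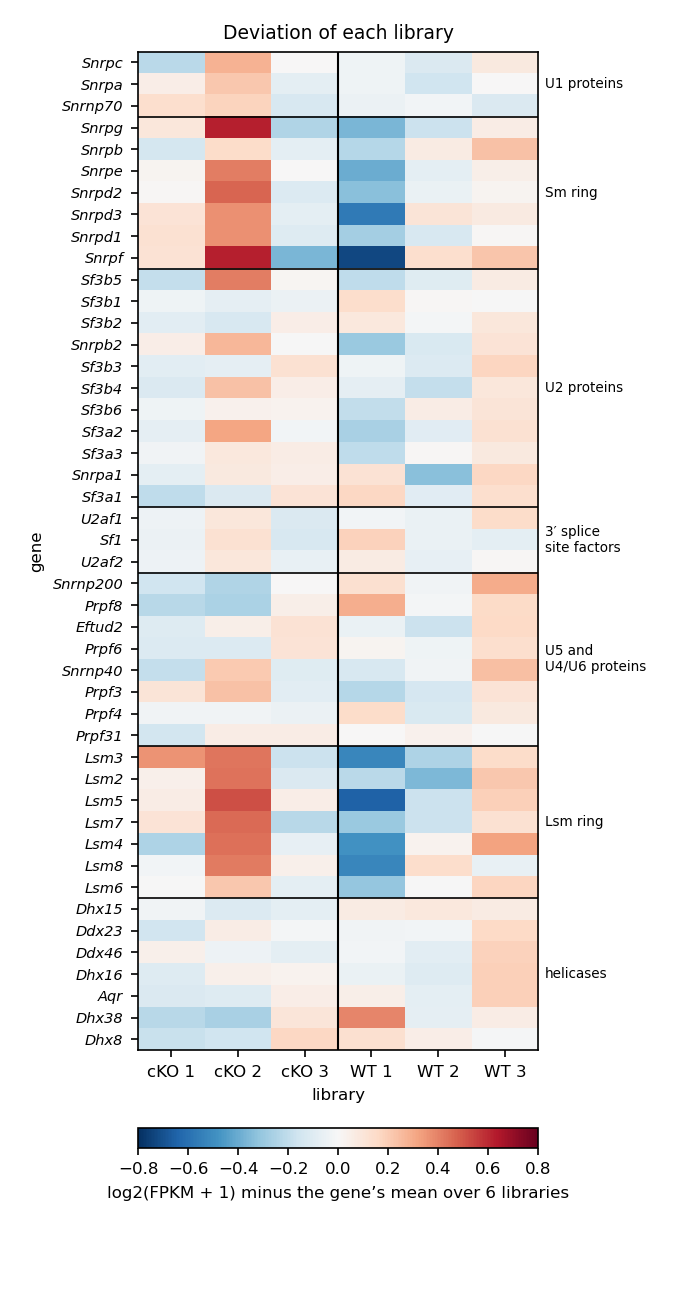
Deviation of log2(FPKM + 1) in each library from the gene's mean over the 6 libraries (colour, red above and blue below), one row per gene and one column per library, cKO on the left and WT on the right. The Sm and Lsm rows are red in cKO replicate 2 and blue in WT replicate 1, while no single library is reddest for all helicase rows: 4 of the 7 are highest in WT replicate 3, and Dhx38 is highest in WT replicate 1.

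Within groups the members had a median SD of 0.16 on the log2 scale, against 0.16 for the 8235 tested genes between the lowest and the highest member. Taken by group, it was 0.157 for the members against 0.124 for those genes in cKO, and 0.154 against 0.166 in WT. The rings varied more, at 0.25 for Sm and 0.29 for Lsm, and the helicases less, at 0.12. The ratio of short to long members followed the same libraries. The FPKM of Snrpg over that of Prpf8 was 3.38, 5.01 and 2.22 in the cKO libraries and 1.71, 2.43 and 2.54 in the WT libraries, and that of Lsm3 over Prpf8 was 2.36, 2.54 and 1.35 in the cKO libraries and 0.891, 1.34 and 1.56 in the WT libraries. cKO replicate 3 lay within the WT range for Snrpg and for Lsm3 in this ratio, while the other cKO libraries lay above it.

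Other rows of the table carry the same protein annotation as 16 of the 46 members, and reads can be shared between them. For 4 members such rows took over 5% of the combined reads in some library. Lsm5 was the most affected, with 39.1, 31.9 and 30.6% in cKO and 39.1, 36.1 and 35.1% in WT of the combined reads on other rows, among them the pseudogene Gm7846 at 33.7, 33.7 and 18.8 FPKM in cKO and 21.1, 23.6 and 27.7 FPKM in WT. For Snrpg the share was 12.4, 8.23 and 15.9% in cKO and 9.01, 11.5 and 10.1% in WT, with the pseudogene Gm8186 at 26.1, 23.7 and 27.7 FPKM in cKO and 13.4, 20.1 and 20.6 FPKM in WT. For Lsm7 it was 17.6, 17.9 and 15.8% in cKO and 9.71, 15.8 and 16.3% in WT, with the pseudogene Gm10146 at 16.6, 21.6 and 11.7 FPKM in cKO and 6.33, 12.0 and 15.4 FPKM in WT. If reads were split between such copies, the levels of these 3 genes are uncertain. The shares count only reads assigned to a row and do not bound that uncertainty. How reads matching several rows were counted is not given. For Prpf31, with 19.3, 17.3 and 13.0% in cKO and 13.0, 16.3 and 12.4% in WT, the other row was a long noncoding RNA that overlaps it on the opposite strand. With these reads added to the members, a setting chosen after seeing the data, the log2 fold change was 0.36 for Lsm5 and 0.35 for Snrpg, and the median of the Lsm ring was 0.29. No label used here says whether the authors' counting used strand, and 10 members overlap another row of the table, the most expressed of these being Cog4 on the strand opposite to Sf3b3.

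No gene of 7 further lists of spliceosome and snRNP assembly factors passed the test either: of 87 tested genes 0 rose and 0 fell. The median of their estimates was 0.042, and the groups did not overlap for 7 of the 87, a share close to the 7.88% of all tested genes. The medians were 0.0075 for 8 other U1 and 5′ splice site factors, −0.0029 for 11 other U2 factors, 0.069 for 18 other tri-snRNP factors, 0.11 for 10 minor spliceosome genes, −0.024 for 15 second step and disassembly factors, 0.049 for 18 snRNP assembly genes and 0.13 for 7 other Sm and Lsm genes. The smallest p belonged to Dhx9, an RNA helicase, at 73.0, 68.2 and 70.8 FPKM in the cKO ovaries and 77.7, 83.7 and 85.0 FPKM in the WT ovaries, with −0.21 (SE 0.087, limma adjusted p = 0.955). Ddx20, also called Gemin3, a helicase of the SMN complex that loads the Sm ring onto RNA, stood at 25.1, 25.5 and 23.9 FPKM in the cKO ovaries and 19.7, 22.3 and 23.4 FPKM in the WT ovaries, with 0.18 (SE 0.097, limma adjusted p = 0.955). The groups of both did not overlap, Dhx9 with cKO below WT and Ddx20 with cKO above WT. U2surp, a U2-associated protein, had −0.15 (SE 0.084), Lsm10, of the U7 snRNP, 0.20 (SE 0.12), Snrnp27, of the tri-snRNP, 0.27 (SE 0.15), Zcrb1, of the minor spliceosome, 0.21 (SE 0.13) and Prpf39, a U1-associated protein, 0.14 (SE 0.11).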

How the data were processed

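Total RNA of 6 whole-ovary libraries was sequenced, and the authors deposited 1 FPKM value per gene and library. Per the submitters' processing notes, the tools include HISAT2 2.0.5, and both mm10 and GRCm39 appear as builds. The coordinates use GRCm39 accessions per the file headers. The counter, annotation release, strand setting and filters were not given in the sources used here. FPKM times length divided by a step per library gave whole reads (100% of values above 0 and up to 5000 reads within 0.05 of a whole number). Groups and replicate numbers came from sample titles.

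Genes with at least 1 FPKM in at least 3 libraries were tested as log2(FPKM + 1) with limma 3.58.1 in R 4.3.3 (lmFit, eBayes with trend, two-sided), with Benjamini-Hochberg adjustment over all 14589 genes at 0.05, so fold changes understate those of low genes. The fit was tested on simulated data. Values given for each library belong, within each class, to the gene with the highest mean, the 2 with the largest absolute estimates, any with an unadjusted p under 0.05 and, where under 5 were then named, those without overlap, and to genes with the smallest p of the other lists. Classes and lists are described by counts and medians, with no test. The members and lists were chosen with earlier results of these data known. Alternatives were a pseudocount of 0.1, no filter or one at 5 FPKM, TPM, median-of-ratios scaling, removal of the length trend, a replicate block, voom on recovered reads, eBayes without trend, array weights, and each library left out. Of 89 listed other spliceosome genes, 1 symbol (Pat1b) was not matched and 1 did not pass the filter.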

Additional observations from a re-analysis of the deposited data

How the results depend on the processing

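The count of 0 called members held in all 17 alternatives run, which were 10 other settings, 6 fits without a library and 1 setting added after seeing the data, with the smallest adjusted p of a member between 0.307 and 0.9998. Array weights called 1 gene among all tested genes in place of 0, and put 4 members at an unadjusted p under 0.05 (Lsm2, Lsm3, Snrpa and Snrpd1), with 13.6% of all genes. That count was 5 (all genes 4.81%) without cKO replicate 3 (Lsm3, Prpf8, Snrnp200, Snrpd1 and Snrpg), 3 (all genes 7.42%) without WT replicate 3 (Lsm3, Lsm5 and Snrpb2), 2 (all genes 3.31%) without WT replicate 2 and 2 (all genes 2.95%) with TPM (Prpf8 and Snrnp200 in both), and 0 in the other 12 alternatives. Voom on recovered reads gave no call, and of the 381 genes with an unadjusted p under 0.05, 0 were members. Members without overlap numbered 5 (10.9%, all genes 8.29%) after rescaling to TPM and between 2 and 16 when a library was left out: 16 (34.8%, all genes 23.0%) without cKO replicate 3, 10 (21.7%, all genes 27.2%) without WT replicate 3, 9 (19.6%, all genes 17.4%) without WT replicate 2, 3 (6.52%, all genes 16.3%) without WT replicate 1, 3 (6.52%, all genes 14.2%) without cKO replicate 1 and 2 (4.35%, all genes 11.8%) without cKO replicate 2. The median of the rings was above 0 in each of the 17, from 0.084 to 0.37. The members' median ran over −0.0099 to 0.097 when a library was left out. Of 289 values of the 17 named genes under these alternatives, 13 had the other sign, in 4 genes. Snrpc was at −0.035 with TPM, −0.11 with the length trend removed and −0.083 to 0.16 without a library. Sf3b5 was at −0.018 with the length trend removed and −0.012 to 0.29 without a library. Sf1 was at 0.00010 with voom, 0.012 with array weights and −0.10 to 0.050 without a library. U2af1 was at 0.0053 with array weights and −0.10 to 0.018 without a library. The cause was not tested. Median-of-ratios scaling changed nothing, since the deposited columns already shared 1 factor (1.001).

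Replicate numbers are shared by the groups, but same-numbered libraries deviated together with correlations of only 0.22, 0.014, −0.028, so the numbers were not read as pairs. With a replicate block 0 genes were called, 432 had an unadjusted p under 0.05 and the members' median stayed at 0.038. With 3 libraries a group, the median half-width of the members' 95% intervals was 0.30 on the log2 scale. It was 0.47 for the rings and 0.26 for the members outside them. These intervals are not adjusted for the number of genes tested. Under the adjusted test the deleted gene Bcas2 did not pass, with −1.05 and a limma adjusted p of 0.955. The count of 0 called members therefore does not show that the members were unchanged. Gene totals cannot show exon usage.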
